A study of Mus musculus with 72 samples.

Results

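The genes described here are 6 components of adrenergic and cAMP signalling in adipose tissue: Adrb1, Adrb3 and Adra2a, which encode adrenergic receptors, Adcy3, an adenylyl cyclase, Prkar2b, a regulatory subunit of protein kinase A, and Pde3b, a phosphodiesterase that breaks down cAMP. They were chosen by symbol, as genes of the route from noradrenaline to lipolysis, and were looked up in the platform annotation of the Illumina arrays by symbol, gene identifier and transcript accession. A probe was listed for 2 of the 6, Prkar2b and Pde3b, among the 12265 genes with a probe that passed the filter on dim signals. Adrb1, Adrb3, Adra2a and Adcy3 were therefore not analysed here, and the receptor step of the route is covered only by related genes. The other genes of the pathway were read from 8 lists with 71 genes in all, of which 54 had a probe that passed the filter.

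In adipocytes, noradrenaline released by sympathetic nerves binds beta-adrenergic receptors, which act through the stimulatory G protein on adenylyl cyclase, and the cAMP formed releases the catalytic subunits of protein kinase A from its regulatory subunits. Protein kinase A then phosphorylates hormone-sensitive lipase and perilipin, so that adipose triglyceride lipase and hormone-sensitive lipase hydrolyse stored triglyceride, and in brown fat the fatty acids feed heat production through uncoupling protein 1. Alpha2-adrenergic receptors act against this route through inhibitory G proteins, and phosphodiesterase 3B, which insulin activates, ends the signal. The RII beta subunit made from Prkar2b is the prevailing regulatory subunit in mouse brown and white fat.

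The data were 72 whole-transcriptome arrays (Illumina MouseRef-8 v2.0) of C57BL/6J mice in 17 labelled groups of 3 to 5 arrays. Controls carried the Fabp4-Cre transgene alone. HSLAKO mice carried this transgene with homozygous floxed alleles of Lipe, the gene of hormone-sensitive lipase. ATGLAKO mice lacked Pnpla2, the gene of adipose triglyceride lipase, in adipose tissue, and DAKO mice were bred from both of these lines. Fabp4, whose promoter drives Cre here, is a gene of adipocytes, and all mice were fasted for 5 h before tissue was taken. Interscapular brown adipose tissue (BAT) at 3 months of age was hybridised from 5 mice each of the control, ATGLAKO and DAKO genotypes and from 4 HSLAKO mice, and at 7 and at 12 months from 4 mice of each genotype. DAKO BAT at 14 months, the tumour stage of the study, gave 5 arrays. Perigonadal white adipose tissue (WAT) was taken at 3 months, with 3 arrays of controls, 5 of ATGLAKO, and 4 each of HSLAKO and DAKO mice.

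Several arrays had signals unlike those that their labels lead to expect, and groups are therefore named as labelled. The reason was not tested. The study reports complete deficiency of the deleted lipases in brown and white fat by Western blot and real-time PCR. Of the arrays labelled ATGLAKO and DAKO BAT at 3 months, 2 and 3 had a Pnpla2 signal at or above the lowest control array, which stood at 12.91 on the log2 scale. At the older ages the same level of Pnpla2 was reached on 3 of 4 ATGLAKO arrays at 7 months, 2 of 4 ATGLAKO arrays at 12 months and 1 of 4 DAKO arrays at 12 months, and the lowest Lipe level of the 3-month controls on 2 of 5 DAKO arrays at 14 months. In the arrays labelled DAKO BAT at 3 months the log2 signal of Pnpla2 was 14.04, 13.93, 13.85, 10.02 and 11.03, against 12.91 to 13.31 in the controls. The log2 signal of Lipe was 7.35, 5.83, 5.58 and 6.65 in HSLAKO BAT and 7.84, 7.21, 7.19, 5.55 and 8.95 in DAKO BAT at 3 months, all below the 9.31 to 9.95 of the controls. On the same HSLAKO arrays Pnpla2, which the label leaves intact, was 14.10, 10.92, 10.58 and 13.36, so that arrays 2 and 3 lay below every control. Lipe, also intact by label, was at 6.56 to 7.03 in control BAT at 7 months, below every control at 3 months. Ucp1, the defining gene of brown fat, fell into 2 separate ranges with a gap of 3.10 log2 units, and it lay above the gap on all 19 BAT arrays at 3 months but on 11 of the 32 BAT arrays at 7 and 12 months, on 3 of 5 at 14 months and on 10 of the 16 WAT arrays. Of the 29 arrays below the gap 16, among them all 8 control BAT arrays at 7 and 12 months, carried mesothelial markers at a mean log2 signal of 6.06 or more, against 4.98 or less on all other arrays. Mesothelium lines the abdominal organs and is no component of interscapular BAT. A detection p under 0.05, the limit for a signal above background, was reached by 44.8 to 54.8% of probes per array, and the median raw signal was 94.7 to 161. The 16 arrays with mesothelial markers had the highest median raw signals, from 121 to 161, and the highest of all other arrays was 118.

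The promoter of Prkar2b is shown because Prkar2b is the member whose signal varied along the thermogenic and lipase genes. The 250 bases before its first start site in RefSeq (GRCm38.p6, chr12:32061278-32061527, minus strand) are given 5′ to 3′, with capitals at each GC box (GGGCGG, on either strand):
Prkar2b: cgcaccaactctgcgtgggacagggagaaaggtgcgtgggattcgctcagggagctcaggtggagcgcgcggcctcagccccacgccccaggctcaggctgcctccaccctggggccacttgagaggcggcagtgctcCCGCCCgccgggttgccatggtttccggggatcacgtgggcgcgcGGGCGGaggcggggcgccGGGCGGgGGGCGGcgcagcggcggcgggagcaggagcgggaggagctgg
This window had 75.6% G and C and 28 CpG dinucleotides. The GC box occurred 4 times between 112 and 42 bases before the start, and it was present in 32.7% of 32851 RefSeq promoter windows of the same length. The full cAMP response element (TGACGTCA, in 1.55% of windows), its short form (TGACG, which the full form contains, in 17.8%), the TATA box (TATAAA, in 12.4%) and the CCAAT box (CCAAT, in 33.8%) had no match on either strand of this window. The window of the second Prkar2b start site had no match to any of these 5 motifs. Among the members without a probe, the short cAMP response element occurred 90 bases before the start of Adrb1 and 69 bases before that of Adra2a, whose window also had a TATA box 29 bases before the start. The second Adcy3 window, of 2, had none of these motifs, and no window was listed for Adrb3 or Pde3b. A match is a description of letters, not a binding site.

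Prkar2b (ILMN_1220477, Entrez 19088, chromosome 12) was above background on 43 of 72 arrays, and its level was highest in control BAT at 3 months. In these 5 controls its log2 signal was 6.39, 5.69, 6.38, 6.59 and 6.61, all above background. The ATGLAKO arrays of the same age gave 6.04, 6.97, 6.08, 4.63 and 4.81, so that they overlapped the controls at the upper end and reached the background at the lower. The HSLAKO arrays gave 5.43, 4.51, 4.45 and 5.09, of which 2 of 4 were above background. The DAKO arrays gave 5.43, 5.07, 5.64, 4.71 and 4.92. Every HSLAKO and DAKO array was therefore below the lowest control.

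In BAT at 3 months, the study asked how loss of each lipase and of both together changes expression, and Prkar2b was lower on average in all 3 knockout groups without passing the threshold of an adjusted p under 0.01 in any of them. The limma test, adjusted over 18083 probes, gave a log2 difference of -1.46 for HSLAKO minus control (SE 0.39, 95% interval -2.25 to -0.67, 2.76-fold lower), with an adjusted p of 0.0133. Over all probes 2.54% were called in this comparison, 10.3% had an adjusted p under 0.05, and 14% were lower on every HSLAKO array than on any control. For DAKO minus control the log2 difference of Prkar2b was -1.18 (SE 0.37, 95% interval -1.92 to -0.43, 2.26-fold lower), with an adjusted limma p of 0.0473. Here 1.23% of probes were called, 5.4% had an adjusted p under 0.05, and 8.34% did not overlap the controls and were lower, so a probe below all controls was not rare in either comparison. For ATGLAKO minus control, where 0.282% of probes were called, the log2 difference of Prkar2b was -0.63 (SE 0.37, 95% interval -1.37 to 0.12) with an adjusted limma p of 0.429. With the authors' normalized values the log2 differences were -0.32 in HSLAKO (adjusted p 0.0105), -0.27 in DAKO (adjusted p 0.0280) and -0.13 in ATGLAKO (adjusted p 0.461). The 3 comparisons share the same 5 control arrays. In bulk tissue, fewer cells that express a gene and less RNA per cell cannot be told apart.

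Prkar2b did not pass the test in any comparison between knockout groups at 3 months. DAKO minus ATGLAKO gave a log2 difference of -0.55 (SE 0.37, adjusted limma p 0.892), and DAKO minus HSLAKO gave 0.28 (SE 0.39, adjusted p 1.00). The interaction of both deletions, DAKO minus ATGLAKO minus HSLAKO plus control, was 0.91 on the log2 scale (SE 0.54, 95% interval -0.18 to 2.00, adjusted p 0.785). Calls were few over all probes in these contrasts, with 0.00553% for DAKO minus ATGLAKO, 0% for DAKO minus HSLAKO (217 probes at an unadjusted p under 0.05) and 0.0111% for the interaction.

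**Figure D1:**
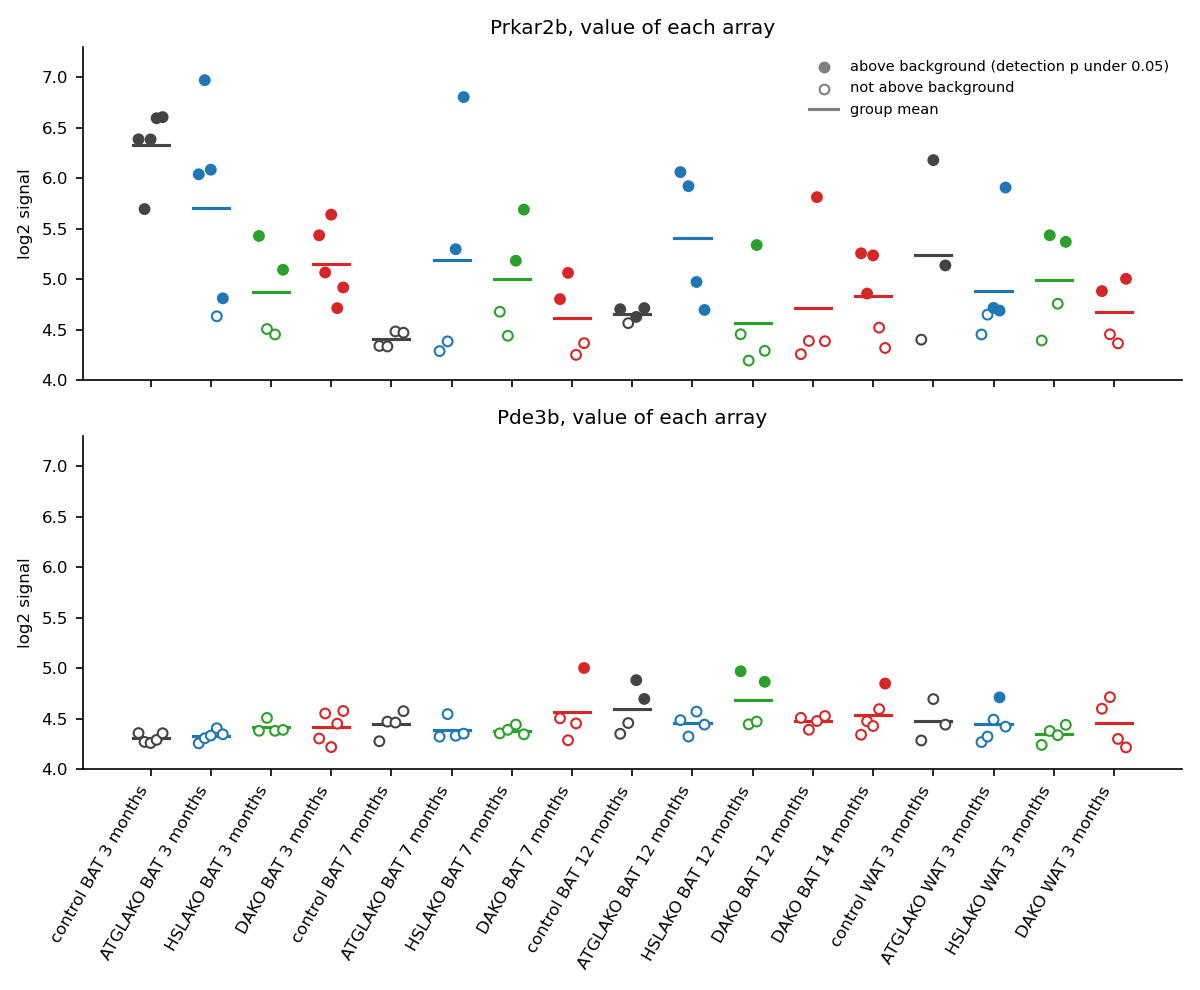
Log2 signal (y axis) of Prkar2b and Pde3b on every array of the 17 labelled groups (x axis); each point is an array, filled points are above background at a detection p under 0.05, and lines are group means. Prkar2b is highest in control BAT at 3 months, with a mean of 6.33, and most Pde3b points are unfilled.

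Other cell types differed along with the lower Prkar2b signal. The mean log2 signal of 9 macrophage genes was 6.72 to 7.04 in control, 8.73 to 11.2 in HSLAKO and 8.84 to 10.8 in DAKO BAT at 3 months, with 6 of 9 and 4 of 9 of these genes called higher. The mean of 8 skeletal muscle genes was 9.54 to 10.78, 10.68 to 13.34 and 10.56 to 13.44 in the same order, and that of 7 fibroblast genes was 7.29 to 7.50, 9.02 to 10.06 and 8.82 to 9.36. Of the adipocyte list, 13 of 15 genes were measured and had a mean of 10.22 to 10.59 in control, 9.38 to 10.4 in HSLAKO and 9.51 to 10.5 in DAKO arrays. The brown adipocyte list, with 9 of 10 genes measured, gave 10.57 to 10.80, 8.32 to 9.81 and 9.22 to 10.59. The endothelial list and the nerve and Schwann cell list, with 4 of 10 genes of the latter measured, overlapped in all 3 groups. Of the 8 muscle genes 0 were called in HSLAKO or DAKO, and of the 7 fibroblast genes 3 and 2 were called higher. Of the adipocyte list 1 gene was called higher in each. Of the brown adipocyte list 1 was called lower in HSLAKO and 0 in DAKO. In ATGLAKO arrays the muscle mean was 11.48 to 13.14, above all controls, with 0 of 8 genes called. Their macrophage mean was 6.85 to 9.37 and their fibroblast mean 7.67 to 9.45, with 9 of 9 and 7 of 7 genes higher on average. Their brown adipocyte mean was 9.99 to 10.47, with 8 of 9 genes lower on average. In these 3 lists 0 genes were called in ATGLAKO. The part of these shifts in the Prkar2b difference was not tested.

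In DAKO BAT at 14 months, Prkar2b was lower than in control BAT at 3 months, the only comparison of groups in which a member was called. Its log2 signal was 5.26, 4.86, 5.24, 4.52 and 4.32 on the 14-month arrays, all below the lowest of the 5 controls. The log2 difference was -1.50 (SE 0.37, 95% interval -2.24 to -0.75, 2.82-fold lower), with an adjusted limma p of 0.00657. Over all probes 3.54% were called, and 9.74% were lower on every 14-month array than on any control. Leaving out 7 of the 10 arrays in turn, namely control replicates 1, 3, 4 and 5 and DAKO replicates 2, 4 and 5, took the adjusted p above 0.01, up to 0.0347, with differences of -1.50 to -1.37 in these cases. On these 14-month arrays the log2 signal of Lipe was 9.36, 9.18, 9.44, 5.06 and 5.19, so that 2 of 5 lay within the range of the controls although the label gives Lipe as deleted. Without these 2 arrays, a setting chosen after seeing the data, the log2 difference of Prkar2b was -1.77 (adjusted limma p 0.00511). Of the arrays kept in that setting, arrays 4 and 5 had Ucp1 at 6.21 and 6.82, below the gap, and Prkar2b not above background. Kept array 2 had Lipe at 9.18, close to the controls. That difference therefore cannot be read as the effect of Lipe loss. With the authors' normalized values and all arrays the log2 difference of Prkar2b was -0.33 (adjusted p 0.00580). The study describes DAKO BAT at 14 months as its tumour stage, so age, genotype and tumour cannot be told apart in this comparison. Macrophage genes again differed, with 7 of 9 called higher. Of the brown adipocyte list 9 of 9 genes were lower, with a median log2 difference of -1.98. Of the adipocyte list 12 of 13 were lower and 1 was higher, with a median of -1.50. In both of these lists 0 genes were called. The part of these shifts in the Prkar2b difference was not tested. Against DAKO BAT at 12 months the log2 difference of Prkar2b was 0.13 (adjusted p 0.967, 0% of probes called, 979 at an unadjusted p under 0.05). Against DAKO BAT at 3 months it was -0.32 (adjusted p 0.981, 0% called, 599 at an unadjusted p under 0.05).

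At 7 months Prkar2b was not above background on any of the 4 control BAT arrays, which gave log2 signals of 4.34, 4.33, 4.48 and 4.47. ATGLAKO BAT gave 4.29, 4.38, 5.30 and 6.80, HSLAKO BAT gave 4.68, 4.44, 5.18 and 5.69, and DAKO BAT gave 4.80, 5.06, 4.25 and 4.37. Each knockout group thus held arrays with and without a signal above background, 2 of 4 in every group. The ATGLAKO mean was 1.46-fold above the lowest measurable signal, but its difference from control was not called (adjusted limma p 0.458, 0% of probes called, 2033 at an unadjusted p under 0.05). The HSLAKO mean was 1.27-fold above that signal, also without a call (adjusted p 0.433, 1.62% called). As each of these groups held arrays at background, neither fold is a lower bound of the difference. For DAKO, where 1.56% of probes were called, the adjusted p was 0.819 and no fold is given.

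At 12 months the control BAT arrays gave 4.70, 4.56, 4.63 and 4.71, with little spread and 3 of 4 above background. ATGLAKO BAT gave 6.06, 5.92, 4.97 and 4.69, with a log2 difference from control of 0.76 (adjusted limma p 0.283, 0.575% called). HSLAKO BAT gave 4.45, 4.19, 5.34 and 4.29, and DAKO BAT gave 4.26, 4.39, 5.81 and 4.38, each with 1 array of 4 above background. The log2 differences of Prkar2b were -0.08 for HSLAKO (adjusted p 0.924, 8.78% called) and 0.06 for DAKO (adjusted p 0.948, 7.2% called). All control arrays at 7 and 12 months carried the mesothelial signal and had a higher median raw signal than any array without it. Genotype, this tissue difference and the array intensity therefore cannot be told apart at these ages. The DAKO minus control difference of Prkar2b was higher by 1.39 at 7 than at 3 months (SE 0.56, adjusted p 0.101, 1.78% called) and by 1.24 at 12 than at 3 months (SE 0.56, adjusted p 0.183, 1.23% called), neither past the threshold. The difference at 7 months passed it with only the compared groups fitted (adjusted p 0.00651) and with array weights (1.64, adjusted p 0.00600).

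In WAT at 3 months the log2 signal of Prkar2b was 4.40, 6.18 and 5.14 in controls, a range wider than that of control BAT of the same age. It was 4.45, 4.65, 4.71, 4.69 and 5.91 in ATGLAKO, 4.39, 5.43, 4.76 and 5.37 in HSLAKO, and 4.88, 4.45, 4.36 and 5.00 in DAKO WAT. The groups overlapped throughout, and the log2 differences from control were -0.36, -0.25 and -0.56 in this order (adjusted limma p 1.00, 1.00 and 0.848). No probe was called in these WAT comparisons (0% each), while 585, 561 and 1044 probes had an unadjusted p under 0.05. BAT minus WAT gave log2 differences of 1.09 in control (SE 0.43, adjusted p 0.268, or 0.00331 with array weights, 0.0553% called), 0.83 in ATGLAKO (SE 0.37, adjusted p 0.173, 0.514% called), -0.12 in HSLAKO (adjusted p 1.00, 0% called, 227 at an unadjusted p under 0.05) and 0.48 in DAKO mice (adjusted p 1.00, 0% called, 195 at an unadjusted p under 0.05). Ucp1 lay above the gap on 2 of 3 control, 1 of 5 ATGLAKO, 4 of 4 HSLAKO and 3 of 4 DAKO WAT arrays. These contrasts were not paired, although 13 mice gave a BAT and a WAT array.

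Ordered by mean log2 signal, Prkar2b stood at 6.33 ± 0.37 (SD, n = 5) in control BAT at 3 months and at 5.71 ± 0.98 (n = 5) in ATGLAKO BAT at 3 months. Then came ATGLAKO BAT at 12 months with 5.41 ± 0.68 (n = 4), control WAT with 5.24 ± 0.89 (n = 3), ATGLAKO BAT at 7 months with 5.19 ± 1.17 (n = 4) and DAKO BAT at 3 months with 5.15 ± 0.38 (n = 5). The remaining 11 groups had means from 5.00 down to 4.41, the lowest in control BAT at 7 months with 4.41 ± 0.08 (n = 4). In all 16 pairs of neighbours in this order the arrays of both groups overlapped, as groups with close means are apt to do. This does not bear on groups farther apart, such as control and HSLAKO BAT at 3 months, which did not overlap.

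Pde3b (ILMN_1249213, Entrez 18576, chromosome 7) was at or near background almost everywhere. It was above background on 7 of 72 arrays, and its log2 signal spanned 4.21 to 5.00 over all of them. In BAT at 3 months it gave 4.36, 4.27, 4.26, 4.29 and 4.35 in control, 4.38, 4.51, 4.38 and 4.39 in HSLAKO and 4.30, 4.55, 4.22, 4.45 and 4.58 in DAKO arrays, and on 0 of the 19 arrays of that age was it above background. No comparison of groups was called for Pde3b, and because the dim groups lay at background no fold is given. The arrays above background were 2 of 4 in control and 2 of 4 in HSLAKO BAT at 12 months, 1 of 4 in DAKO BAT at 7 months, 1 of 5 in DAKO BAT at 14 months and 1 of 5 in ATGLAKO WAT. The highest was 5.00, in DAKO BAT at 7 months. All 7 lay below the Ucp1 gap.

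**Figure D2:**
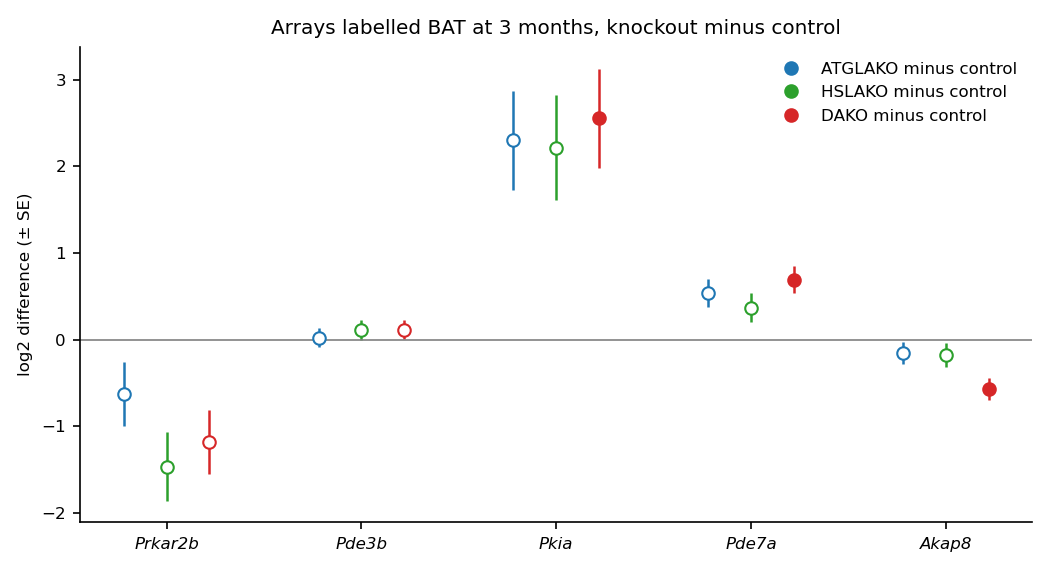
Log2 difference from control BAT at 3 months (y axis) of Prkar2b, Pde3b and the 3 called pathway genes (x axis), with a colour for each knockout genotype; bars are the standard error of the fit and filled points have an adjusted p under 0.01. Prkar2b lies below 0 in all 3 genotypes with open points, Pde3b lies close to 0, and filled points are seen in DAKO only, for Pkia, Pde7a and Akap8.

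Prkar2b rose with Ucp1 across arrays of the same group. Above the Ucp1 gap it was above background on 37 of 43 arrays, with log2 signals of 4.36 to 6.97 (median 5.30), and below the gap on 6 of 29, with 4.19 to 4.71 (median 4.45). With the labelled group as a term, Prkar2b rose by 0.132 log2 units for each log2 unit of Ucp1 (SE 0.018, adjusted limma p 6.19e-09). A slope past the threshold was common, since 48.7% of all probes were called along Ucp1, 21.9% rising and 26.8% falling. The Prkar2b slope was at percentile 91.7 of all slopes, a rank that counts falling probes too and does not set it apart from other rising ones. Because Ucp1 lay in separate ranges, the correlation of deviations from the group means was taken within each. Above the gap Pearson's r was 0.52 and Spearman's rho 0.60 over 40 arrays of 12 groups (permutation p 0.00042 and 0.00096, arrays permuted within their group), and r was 0.47 without the 2 arrays farthest from the median of Ucp1. Below the gap, where most Prkar2b signals were at background, r was -0.07 and rho -0.28 over 26 arrays of 9 groups (permutation p 0.728 and 0.248).

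**Figure D3:**
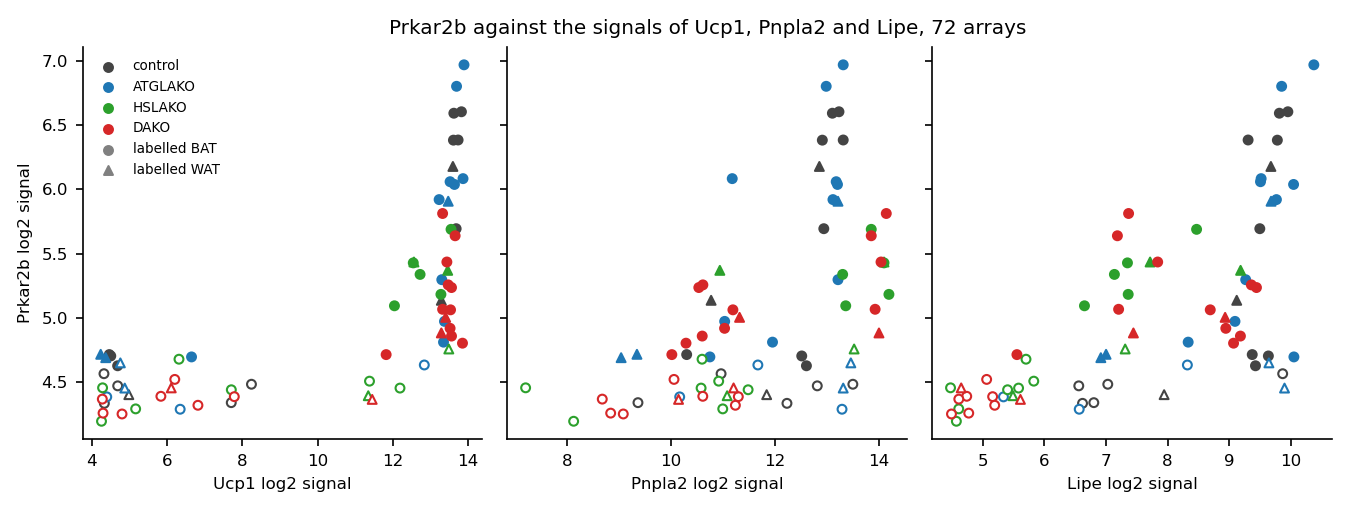
Log2 signal of Prkar2b (y axis) against the log2 signals of Ucp1, Pnpla2 and Lipe (x axes) on all 72 arrays; circles are arrays labelled BAT, triangles arrays labelled WAT, and filled symbols have Prkar2b above background. Below the Ucp1 gap Prkar2b does not exceed 4.71, and above it the signal spans 4.36 to 6.97.

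Prkar2b also rose along both lipase genes. Along Pnpla2 its slope was 0.191 (SE 0.042, adjusted limma p 0.000223), in a fit that called 33% of probes, 15.8% rising and 17.2% falling. The correlation of deviations over 72 arrays was r = 0.52 and rho = 0.55 (permutation p 2e-05 and 1e-05), with r = 0.52 without the 2 arrays farthest from the median. Along Lipe the slope was 0.281 (SE 0.042, adjusted limma p 6.17e-08), with 44.7% of probes called, 21% rising and 23.7% falling. Here r was 0.67 and rho 0.73 (permutation p 1e-05 for each, the smallest that 100000 permutations can give), and r stayed at 0.67 without the 2 farthest arrays. These relations were not separate measurements, since Lipe itself rose by 0.353 and Pnpla2 by 0.258 log2 units for each log2 unit of Ucp1 within groups. In all, 8 correlations were computed, and 13 mice gave 2 arrays each.

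The relation to Lipe did not run through all arrays alike. In control BAT at 12 months Lipe was at 9.37 to 9.87, near its level in control BAT at 3 months, while Ucp1 was at 4.33 to 4.69 and Prkar2b at 4.56 to 4.71. On the 16 arrays with mesothelial signal Prkar2b lay between 4.29 and 4.71 (median 4.52, 6 above background), although Pnpla2 reached 13.50 and Lipe 10.05 there.

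Pde3b showed no such rise. Along Ucp1 its slope was -0.016 log2 units for each log2 unit (SE 0.007, adjusted limma p 0.052) and along Pnpla2 -0.020 (SE 0.014, adjusted p 0.264). Along Lipe the slope was -0.047 (SE 0.015, adjusted limma p 0.00733), past the threshold, with r = -0.41 and rho = -0.36 (permutation p 0.00671 and 0.00857) and r = -0.44 without the 2 farthest arrays. This call was lost under 7 of 10 other settings, with slopes of -0.051 to -0.017. A probe above background on 7 of 72 arrays gives little range, and Pde3b was above background on 0 of 43 arrays above the Ucp1 gap and 7 of 29 below it. The correlations of Pde3b with Ucp1 were 0.10 above the gap (permutation p 0.692) and -0.16 below it (permutation p 0.302), and that with Pnpla2 was -0.20 (permutation p 0.167).

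The genes whose log2 signal over all 72 arrays was most like that of Prkar2b were Nudt12, a NADH and NAD hydrolase (Pearson's r 0.897), Ucp3, a mitochondrial uncoupling protein of muscle and brown fat (0.893), and Dnajc28 (0.890). For comparison, r of Prkar2b was 0.70 with Ucp1, 0.55 with Pnpla2 and 0.67 with Lipe. Those most like Pde3b were Eef1b2, a translation elongation factor (0.597), Zmynd8, a chromatin reader (0.589), and Atm, a DNA damage kinase (0.586). These values are descriptions over arrays that share groups.

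Of the 54 other pathway genes, 0 were called in ATGLAKO, 0 in HSLAKO and 3 in DAKO BAT at 3 months. An unadjusted p under 0.05 was reached by 10, 16 and 13 of them, against 2784, 4875 and 3962 of all 18083 probes. The median log2 difference of the 54 genes was 0.05, 0.05 and -0.04 in this order, against -0.01, -0.03 and -0.04 over all probes. Over all probes 0.503% were called higher and 0.73% lower in DAKO. The only other adrenergic receptor with a tested probe, Adra2c, an alpha2 receptor, had log2 differences of -0.17, -0.32 and -0.30 and was not called. No G protein subunit (4 measured), adenylyl cyclase (8), inhibitory receptor of lipolysis (5) or other cAMP effector (9) was called in any of these 3 comparisons.

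Among the 7 other subunits and inhibitors of protein kinase A, Pkia was called higher in DAKO. Pkia encodes a peptide inhibitor that binds the catalytic subunit. Its log2 signal was 6.67, 7.17, 7.61, 7.14 and 7.10 in control arrays and 9.13, 10.26, 10.97, 8.49 and 9.62 in DAKO arrays, with no overlap. The log2 difference was 2.56 (SE 0.57, adjusted limma p 0.00524). The ATGLAKO arrays gave 9.06, 8.81, 9.32, 10.25 and 9.74 and the HSLAKO arrays 10.10, 8.23, 8.41 and 10.68, all above every control too, with differences of 2.30 (SE 0.57, adjusted p 0.0256) and 2.22 (SE 0.60, adjusted p 0.0143). The share of all probes that lay above every control was not counted, so the lack of overlap has no background here. Pkia is abundant in skeletal muscle, and the mean of the 8 muscle genes ranged from 10.56 to 13.44 in DAKO against 9.54 to 10.78 in control arrays, a shift whose part in the Pkia difference was not tested.

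Of 12 phosphodiesterases, Pde7a was called higher in DAKO. Pde7a encodes a cAMP-specific phosphodiesterase. It was not above background on any control array (4.47, 4.70, 4.55, 4.71 and 4.33) and was above it on all 5 DAKO arrays (5.13, 5.13, 5.67, 5.03 and 5.27). Against the lowest measurable signal it was at least 1.27-fold higher (adjusted limma p 0.00547). It was above background on 4 of 5 ATGLAKO (adjusted p 0.063) and 3 of 4 HSLAKO arrays (adjusted p 0.135) and called in neither.

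Of 8 anchoring and desensitisation genes, Akap8 was called lower in DAKO. Akap8 encodes a nuclear anchoring protein of protein kinase A. Its log2 signal was 6.65, 6.72, 6.65, 6.53 and 6.76 in control and 6.01, 6.54, 6.06, 5.90 and 5.97 in DAKO arrays, where the array at 6.54 just exceeded the lowest control. The log2 difference was -0.57 (SE 0.13, adjusted limma p 0.00546), against -0.15 in ATGLAKO (adjusted p 0.614) and -0.17 in HSLAKO (adjusted p 0.421). All 3 calls were sensitive to which arrays entered. Leaving out each of the 10 control and DAKO arrays in turn kept the call of Pkia in 3 cases, of Pde7a in 4 and of Akap8 in 2. Without the 5 knockout arrays whose Pnpla2 signal was at the control level, a setting chosen after seeing the data, the log2 differences were 1.92 for Pkia (adjusted p 0.177), 0.60 for Pde7a (adjusted p 0.111) and -0.73 for Akap8 (adjusted p 0.0161), and 0 of 54 pathway genes were called in DAKO.

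At 7 and 12 months the few called pathway genes were lower in HSLAKO and DAKO BAT, as were most called probes overall (211 of 293 and 172 of 282 at 7 months, 1042 of 1587 and 911 of 1302 at 12 months). The 2 genes named here, receptors that inhibit lipolysis, were chosen after their values were seen. Ffar2, a receptor for short-chain fatty acids, had a log2 signal of 10.03 to 10.63 in control BAT at 7 months and 9.98 to 10.55 at 12 months, against 5.60 to 7.58 in control BAT at 3 months. In DAKO BAT it was 4.27 to 7.88 at 7 and 4.71 to 8.26 at 12 months, below all controls of the same age. The share of all probes below every control was not counted at these ages. The log2 difference of Ffar2 was -4.20 at 7 months (adjusted limma p 0.000357) and -3.59 at 12 months (adjusted p 0.000357) in DAKO, and -3.35 (adjusted p 0.00216) and -4.32 (adjusted p 2.95e-05) in HSLAKO. Hcar1, the lactate receptor of adipocytes, was called at 12 months only, with -4.06 in HSLAKO (adjusted p 0.000226) and -3.28 in DAKO (adjusted p 0.00236). The high Ffar2 signal of the older controls sat on arrays that carried the mesothelial signal, and its part in these differences was not tested. In all, 1 of 54 pathway genes was called in HSLAKO and 1 in DAKO at 7 months, where 1.62% and 1.56% of all probes were called, and 5 in each at 12 months, where 8.78% and 7.2% of all probes were called, so the counts were near the background. The call of Hcar1 in DAKO was lost on leaving out DAKO replicate 1 (-2.87, adjusted p 0.0164) or 2 (-3.02, adjusted p 0.0141) and with only the compared groups fitted (adjusted p 0.0460), and that of Ffar2 in HSLAKO at 7 months on leaving out control replicate 2 (-3.27, adjusted p 0.0109) or HSLAKO replicate 1 (-3.08, adjusted p 0.0178). The Ffar2 calls in DAKO were lost with only the compared groups fitted (adjusted p 0.0495 at 7 and 0.0369 at 12 months). In DAKO BAT at 14 months against control BAT at 3 months 0 of 54 pathway genes were called. An unadjusted p under 0.05 was reached by 19 of them, against 5374 of all 18083 probes.

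Along Ucp1, 24 of the 54 pathway genes had a called slope, 14 rising and 10 falling, a share close to that of all probes. The genes named here were chosen after their values were seen. Rising genes had slopes of 0.214 for Gnas, the stimulatory G protein alpha subunit (SE 0.021, adjusted limma p 3.01e-13), 0.176 for Prkaca, a catalytic subunit of protein kinase A (SE 0.020, adjusted p 1.86e-11), and 0.301 for Akap1, which anchors protein kinase A at mitochondria (SE 0.023, adjusted p 3.92e-17). Ppargc1a, a coactivator of thermogenic genes that cAMP induces, rose by 0.34, Ptger3, a prostaglandin receptor that inhibits lipolysis, by 0.20, and Pde8a by 0.17. Falling genes were Gnai2, an inhibitory G protein alpha subunit, with -0.139 (SE 0.014, adjusted p 7.83e-13), Arrb2, a receptor-desensitising arrestin, with -0.220 (SE 0.025, adjusted p 2.44e-11), and Prkacb, the other main catalytic subunit, with -0.094 (SE 0.014, adjusted p 5.45e-08). The slopes of Pde1b and Adcy7 were -0.17 and -0.15. A second Gnas probe gave a slope of 0.026 with an adjusted p of 0.0119 and was not called, and a second Adcy7 probe gave -0.026.

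The same genes had slopes of the same sign along Lipe, with 0.426 for Gnas, 0.407 for Prkaca, 0.632 for Akap1, -0.216 for Prkacb, -0.267 for Gnai2 and -0.528 for Arrb2. Along Lipe 26 of the 54 genes were called, 17 rising and 9 falling, where 44.7% of all probes were called. Along Pnpla2 19 were called, 10 rising and 9 falling, against 33% of all probes. Both shares were near the background. As Lipe and Ucp1 rose together within groups, these slopes describe overlapping variation.

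**Figure D4:**
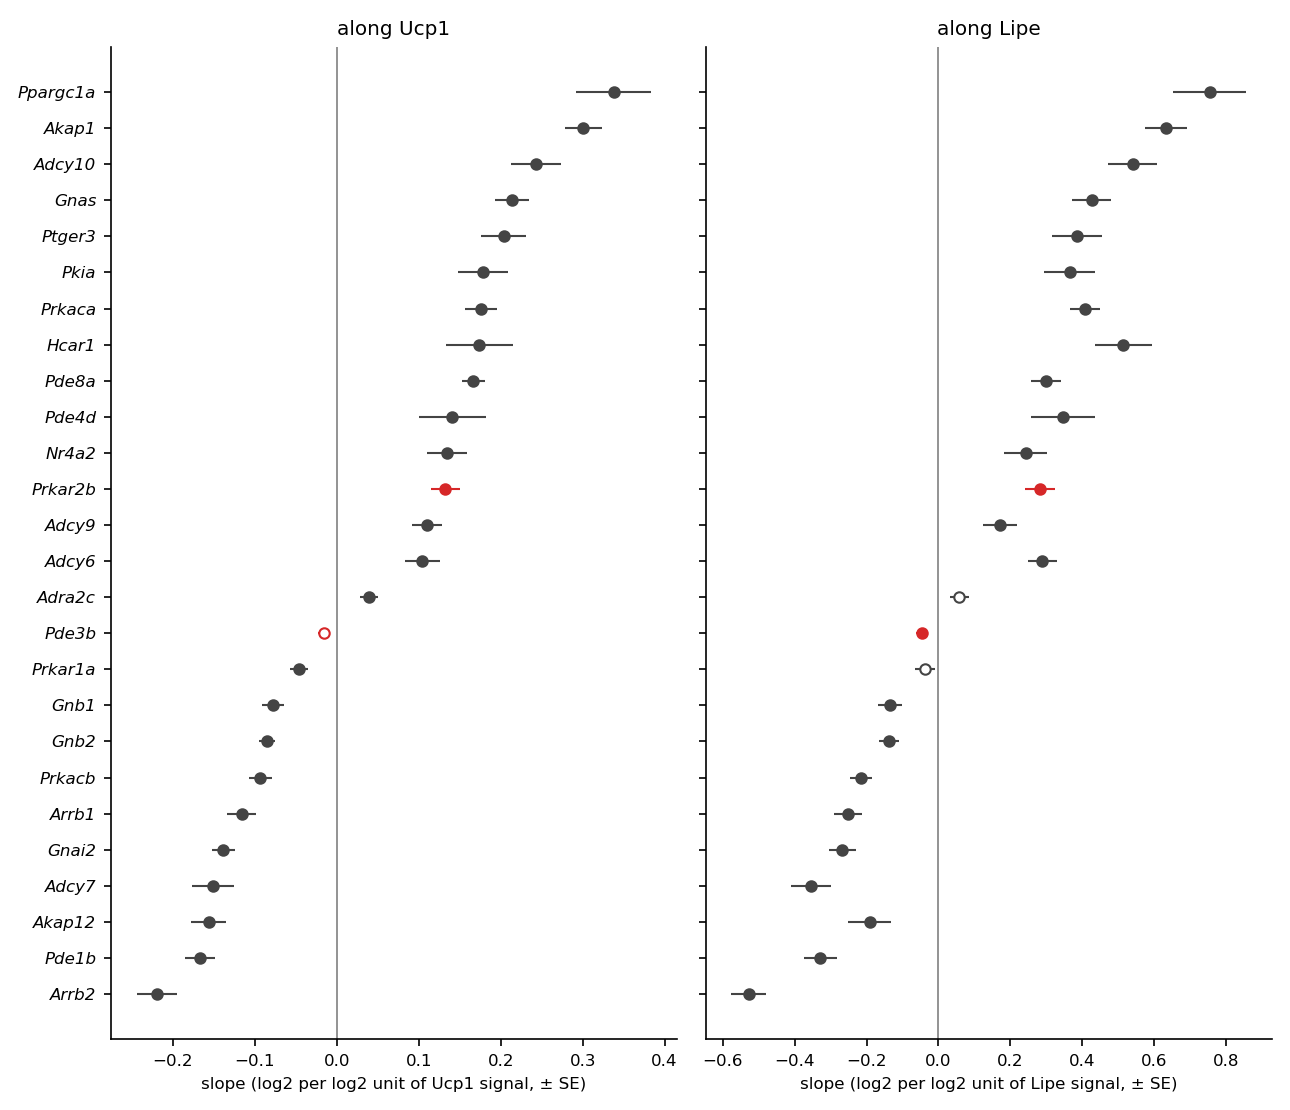
Slopes along Ucp1 and along Lipe (x axes, log2 units per log2 unit, bars are standard errors) of Prkar2b and Pde3b, in red, and of the 24 pathway genes called along Ucp1 (y axis); filled points have an adjusted p under 0.01. Along Ucp1, Prkar2b at 0.132 lies among the rising genes, between Akap1 at 0.301 and Adra2c at 0.04, and Pde3b lies close to 0.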

How the data were processed

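The authors deposited 2 tables of the 72 arrays, with 25697 probes each: raw bead intensity from BeadStudio with a detection p-value per probe and array, and a second table of intensity values after their own normalization. The deposited raw intensity and detection p-value were used, passed through neqc of limma 3.58.1 under R 4.3.3 (normexp background correction by detection p, offset 16, then quantile normalization), and given as log2 signal. The deposited normalized intensity served as an alternative after log2 transformation. A probe was tested if its detection p was under 0.05 on at least 3 arrays (18083 probes). Platform annotation gave 1 symbol to 23978 probes and none to 1719, and each gene took the value of whichever tested probe had the highest mean.

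Group means of all 17 labelled groups were fitted at once with limma (55 residual degrees of freedom), following the limma analysis of the study, and p-values were adjusted by the Benjamini-Hochberg method over all tested probes; an adjusted p under 0.01 was a call. Slopes along Ucp1, Pnpla2 or Lipe were fitted with the labelled group as a term. Where a group lay at background on every array, a fold was given against the lowest signal above background, as a bound only where the difference was called. Values were also recomputed under other normalizations, filters, fits and thresholds and without each array. The array number limits the precision, and no probe's level was set against another's.

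Named genes were the 6 members, the deleted genes Pnpla2 and Lipe, Ucp1, the 3 genes most like each member, and pathway genes called in BAT at 3 months (at most 4 of a list); Ffar2, Hcar1, Nr4a2 and the genes named along the slopes were added after their values were seen. Members and lists were chosen with earlier results of these data known. Scripts were tested on simulated data. Replicate numbers did not pair the samples: over 27 same-number pairs of BAT groups at 3 months, correlations of deviations ranged from -0.81 to 0.50 (median -0.058).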

Additional observations from a re-analysis of the deposited data

Results flagged for a closer look

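Outlying arrays were looked for in 80 combinations of a gene and a group of 4 or 5 arrays, and 8 had an array far from its group, where chance gives about 1 in 20. For Prkar2b, the ATGLAKO WAT array 5 stood at a log2 signal of 5.91 against 4.45 to 4.71 in its group, and the DAKO BAT array 3 at 12 months at 5.81 against 4.26 to 4.39. Both had Ucp1 above the gap. The control BAT array 2 at 3 months was low, at 5.69 against 6.38 to 6.61. For Pde3b, the ATGLAKO BAT array 2 at 7 months stood at 4.54 and the HSLAKO BAT array 2 at 3 months at 4.51, neither above background. Pde7a was at 5.85 on the HSLAKO BAT array 1 at 12 months, against 5.05 to 5.13. Akap8 was at 6.39 on the DAKO BAT array 1 at 12 months, against 6.86 to 6.87, and at 6.54 on the DAKO BAT array 2 at 3 months, against 5.90 to 6.06.

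The DAKO minus control difference changed with age for 2 of the 54 pathway genes by the test of the difference itself. Over all probes 1.78% were called for 7 minus 3 months and 1.23% for 12 minus 3 months. For Ffar2 the difference was lower by -4.92 on the log2 scale at 7 than at 3 months (SE 0.94, adjusted limma p 0.00121) and by -4.30 at 12 than at 3 months (SE 0.94, adjusted limma p 0.00450). The first was kept on leaving out each of 18 arrays in turn and the second on leaving out 13 of 18 (adjusted p up to 0.0173), and the second was lost without the knockout arrays with Pnpla2 at the control level (adjusted p 0.0239). For Nr4a2, a nuclear receptor that cAMP induces, the difference was higher by 2.85 at 7 than at 3 months (SE 0.68, adjusted limma p 0.00760). This call was kept on leaving out 6 of 18 arrays in turn and under 11 of 13 other settings (adjusted p up to 0.0740). The control arrays at 7 and 12 months all carried the mesothelial signal, whose part in these differences was not tested.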

How the results depend on the processing

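For Prkar2b at 3 months, HSLAKO minus control passed the threshold at an adjusted p under 0.05 (-1.46), with an offset of 50 (-0.85, adjusted p 0.00968), with only the compared groups fitted (-1.46, 0.00329) and with array weights (-1.27, 0.000335), and DAKO minus control at an adjusted p under 0.05 (-1.18), with only the compared groups (-1.18, 0.00558) and with array weights (-1.25, 0.000355). The 14-month call was lost with a log2 minimum of 1.5 (-1.50, adjusted p 0.00657) and with arrays scaled to a common median (-1.01, 0.0355). The sizes were smallest with the authors' normalized values (-0.32 for HSLAKO, -0.27 for DAKO, -0.33 at 14 months) and without background correction (-0.50, -0.42 and -0.52). Leaving out single arrays gave -1.65 to -1.32 for HSLAKO, -1.34 to -1.07 for DAKO, -0.94 to -0.36 for ATGLAKO and -1.66 to -1.37 at 14 months. ATGLAKO BAT minus WAT turned to -0.20 without the mesothelial arrays. The called pathway genes numbered, for ATGLAKO, 2 at an adjusted p under 0.05, 2 with the authors' values, 1 with only the compared groups, 4 with array weights and 1 without the knockout arrays with Pnpla2 at the control level; for HSLAKO, 4 at an adjusted p under 0.05, 1 with the authors' values, 1 with the common median, 7 with only the compared groups and 7 with array weights; and for DAKO, 1 with a log2 minimum of 1.5, 5 with the authors' values, 1 with the common median, 5 with only the compared groups, 11 with array weights, 0 without the arrays with Pnpla2 at the control level and 0 to 2 without single arrays. The array weights did not reach their convergence tolerance. With a replicate block, Prkar2b gave -1.48 (HSLAKO, adjusted p 0.019), -1.18 (DAKO, 0.0594), -0.63 (ATGLAKO, 0.454) and -1.50 (14 months, 0.00938), and no call changed. Its slopes kept sign and call under all 11 alternatives (0.035 to 0.134 along Ucp1, 0.038 to 0.234 along Pnpla2, 0.116 to 0.305 along Lipe). Without the knockout arrays with Pnpla2 at the control level, a setting chosen after seeing the data, Prkar2b gave -1.16 in ATGLAKO (adjusted p 0.112) and -1.52 in DAKO (0.0824). The cause of these shifts was not tested. Signals at background limit Pde3b throughout and Prkar2b on 29 arrays. No control BAT remained at 7 or 12 months without the mesothelial arrays, and neither member had another probe, so these alternatives gave no value.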
